A study of Mus musculus with 3 samples.

Results

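Histone H3 trimethylated at K36 (H3K36me3) was examined over the nuclear genes of the mitochondrial respiratory chain in mouse germinal vesicle (GV) oocytes, the grown oocytes that still hold an intact nucleus. The members were the autosomal protein-coding genes of GENCODE M21 (build GRCm38) whose symbol begins with Nduf, Uqcr or Atp5, or is Sdha, Sdhb, Sdhc or Sdhd. The rule found 74 gene models of 20807, and every one of them was overlapped by at least 2 valid windows of 2 kb, 696 windows of 1186323 in all. The symbol Atp5o stands for a pair of gene models, a short one and a long one that runs through neighbouring genes, and they were kept apart.

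Chromatin came from pools of about 280 oocytes of wildtype C57BL6/Babr mice aged 25 days, with no treatment named, and was digested with nuclease and pulled down without cross-linking. All 3 libraries belong to this single group. Replicate 2 was made with less antibody than replicates 1 and 3, and how many animals gave each pool was not given in the sources used here, so any p-value below measures only the spread between these samples. Reads in valid windows numbered 7888140, 2692510 and 3166564 in replicates 1, 2 and 3. Values are in RPKM, by name reads scaled to the depth of the library and the length of the window. After scaling to these depths and to 2 kb, 1 read would be worth less than the values given next. The deposited values thus appear not to be divided by the window length in kb, and levels are read on the scale as deposited. A single read in a window was worth 0.136, 0.396 and 0.338 RPKM, so a window passed 1 RPKM with 8, 3 and 3 reads. The labelled cell was checked against marker genes. All 10 oocyte markers, such as Zp3 and Gdf9, had a mean level above 1 RPKM, and their median was 2.02 ± 0.12 (SD, n = 3). Of 8 granulosa cell markers, 4 were above 1 RPKM (Inhba, Amh, Hsd3b1 and Nr5a2), none was at 0, and their median was 0.843 ± 0.023. Over all autosomal protein-coding genes with at least 2 windows, 54.1% were above 1 RPKM, so the granulosa count was near that share. Nr5a2 (2.02 RPKM) and Hsd3b1 (1.87) stood at the level of the oocyte markers. The part of surrounding cells in the levels below was not tested.

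The respiratory chain passes electrons from NADH (complex I) and succinate (complex II) through ubiquinone to complex III, and on through cytochrome c to complex IV. Complexes I, III and IV pump protons across the inner mitochondrial membrane, and ATP synthase uses the gradient to make ATP. Oocytes are rich in mitochondria and depend on oxidative phosphorylation, taking up pyruvate from the cells around them. H3K36me3 is laid down along gene bodies behind elongating RNA polymerase II, and in growing oocytes it marks regions that become DNA methylated.

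Nearly all respiratory chain genes carried the mark, at a middling level. The level of a gene was the mean over the windows that overlap it. Of 74 members, 69 had a mean level above 1 RPKM, the threshold used here for an enriched window, against 54.1% of 19589 autosomal protein-coding genes with at least 2 windows. In each of the replicates taken singly, 58 members passed 1 RPKM, against 48.2% of all genes. The 5 members under 1 RPKM were Atp5s, Ndufa4l2, Ndufaf8, Ndufb10 and Ndufc2. Above 2 RPKM the members were close to the background, with 19 of 74 (25.7%) against 23.5% of all genes. The median level of the members was 1.67 ± 0.06 RPKM (SD, n = 3), with 1.63, 1.64 and 1.74 in replicates 1, 2 and 3. Over all genes it was 1.15 ± 0.04, with 1.17, 1.10 and 1.18, so the members' median was the higher one in each library.

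**Figure D1:**
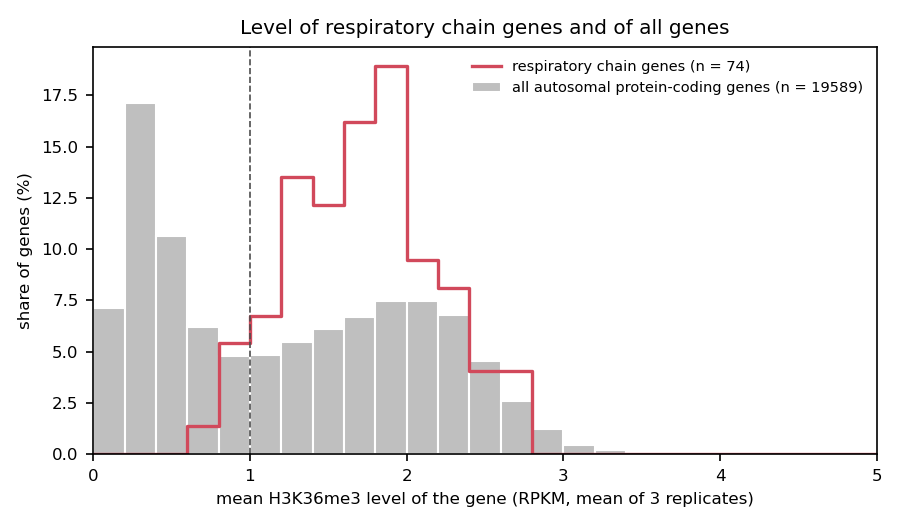
Share of genes (%) by mean H3K36me3 level (RPKM, mean of 3 replicates, bins of 0.2 RPKM) for the 74 respiratory chain genes (red line) and 19589 autosomal protein-coding genes (grey bars). The dashed line stands at 1 RPKM, and 69 of the 74 lie above it, while all genes form a low peak between 0.2 and 0.4 RPKM and a broad one between 1.8 and 2.2.

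The members also lay closer together than genes in general. Their levels ran from 0.684 to 2.79 RPKM, with quartiles at 1.38 and 2.01 and an interquartile range of 0.633. For all genes the quartiles were 0.410 and 1.96, the interquartile range was 1.55, and the highest gene reached 4.81 RPKM.

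Each gene was then set against windows outside all genes. These intergenic windows averaged 0.581, 0.566 and 0.532 RPKM in replicates 1, 2 and 3. The log2 ratio of gene to intergenic level, with 0.1 RPKM added to both, was tested with limma over all 19589 genes (two-sided, Benjamini-Hochberg adjustment over all of them). By this test 69 of 74 members stood above the intergenic level at an adjusted p under 0.05, against 57.3% of all genes. None stood below it, against 18.3% of all genes, and none did so at an unadjusted p under 0.05. Atp5g3, Ndufa4l2, Ndufaf8, Ndufb10 and Uqcr10 did not pass. Against the mean over all autosomal windows, which lowered the median log2 ratio of all genes from 0.92 to 0.30, 52 members were above and 0 below, where 46.4% of all genes were above and 32.8% below. Against 1 RPKM the members above numbered 47, where 43.5% of all genes were above and 35.2% below. Leaving out replicates 1, 2 or 3 gave 62, 68 and 65 members above the intergenic level. The members that lost the call in at least 1 of these fits were Atp5j, Atp5s, Ndufa2, Ndufa6, Ndufaf3, Ndufc2, Uqcr11 and Uqcrfs1.

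The members that did not pass were among the shortest. Of the 7 members with 2 windows, 3 passed, against 24.9% of all genes of that size. Of the 35 members with 3 to 5 windows, 34 passed, against 38.5% of all genes of that size. All 20 members with 6 to 12 windows and all 12 with 13 or more passed, against 58.8% and 71.2%. Reads over all 3 libraries numbered 17 to 40 for members with 2 windows, so that their levels are the least precise. The members' median length was 7.95 kb and that of all genes 19.2 kb.

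**Figure D2:**
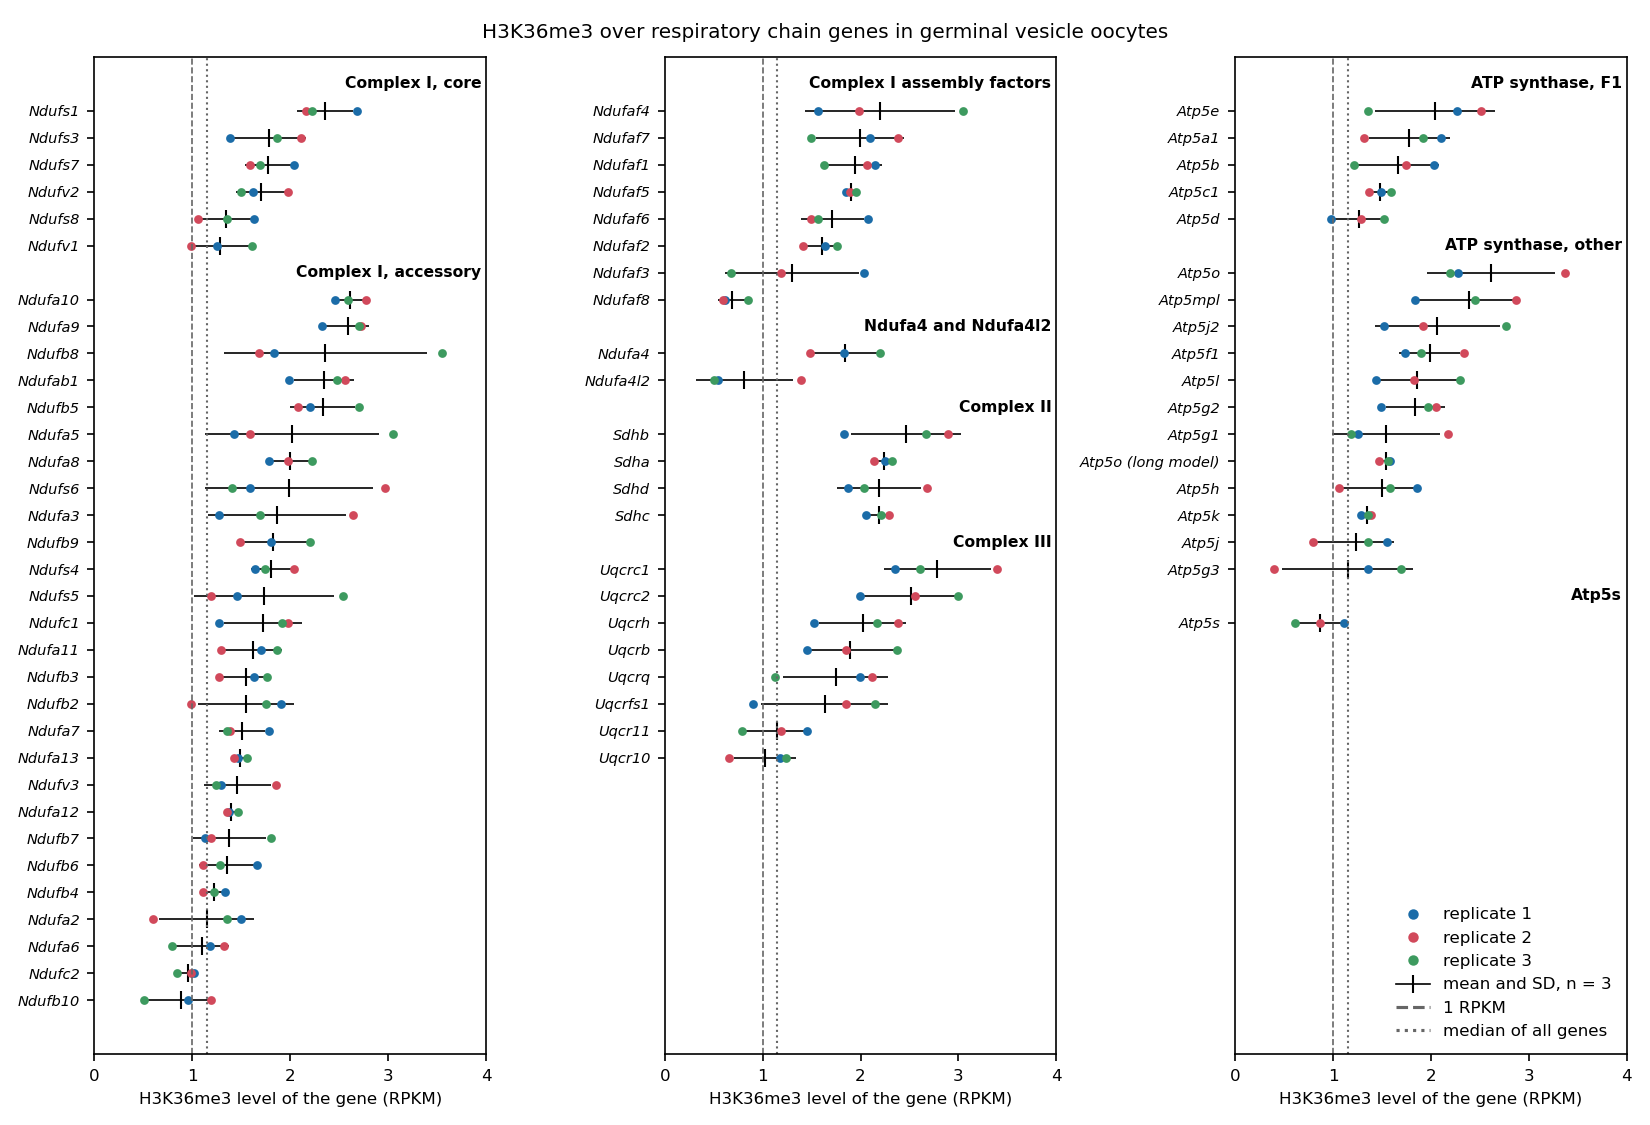
H3K36me3 level (RPKM) of 73 of the 74 members in replicates 1 (blue), 2 (red) and 3 (green), with the mean and SD (n = 3), grouped by role. The dashed line is 1 RPKM and the dotted line the median of all genes (1.15 RPKM); 5 genes have their mean left of the dashed line, and all 4 genes of complex II lie right of it in each replicate.

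Complex I oxidises NADH and is built from a catalytic core and many accessory subunits. The 42 members of complex I, assembly factors included, had a median of 1.63 ± 0.09 RPKM (SD, n = 3). All 7 nuclear-encoded core subunits were above the intergenic level, with means from 1.28 to 2.35 RPKM. Ndufs1, the largest iron-sulphur subunit, led them with 2.68, 2.16 and 2.22 RPKM in replicates 1, 2 and 3, a mean log2 ratio of 1.89 ± 0.10 (SE) and an adjusted p of 1.55e-10 by limma. All 18 windows of Ndufs1 had a mean above 1 RPKM. Ndufs3 and Ndufs7, subunits of the arm that passes electrons to ubiquinone, had means of 1.79 ± 0.37 and 1.77 ± 0.24 RPKM. Ndufv2 followed with 1.70 ± 0.25 and Ndufs8 with 1.35 ± 0.29, both iron-sulphur subunits. Ndufv1, which binds NADH and the flavin, was the lowest of the core with 1.26, 0.991 and 1.61 RPKM. Ndufs3, Ndufs7 and Ndufv2 differed from each other by less than their spread between replicates.

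The 27 accessory subunits of complex I had a median of 1.59 ± 0.16 RPKM and covered nearly the whole range of the members. Ndufa10 had 2.46, 2.77 and 2.59 RPKM, with 17 of its 18 windows enriched and an adjusted p of 7.06e-11. Ndufa9 had 2.33, 2.72 and 2.71 RPKM, with 14 of 15 windows enriched. In both genes the libraries lay close together. Ndufb8 had 1.83, 1.68 and 3.55 RPKM, and its high place rests on replicate 3. Of the 4 windows of Ndufb8, 3 are shared with a readthrough gene model (Gm20538), and its remaining window was at 1.23 RPKM.

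At the other end, Ndufb10 had 0.951, 1.19 and 0.508 RPKM over 2 windows and 23 reads, with an adjusted p of 0.218. Ndufc2, a subunit of the membrane arm, had 1.02, 0.991 and 0.846 RPKM and a log2 ratio of 0.67 ± 0.29 (SE), with an adjusted p of 0.0481. Ndufa6 had 1.18, 1.32 and 0.790 RPKM with an adjusted p of 0.0250. Of the 3 fits that left out a replicate, Ndufc2 passed in none and Ndufa6 in the one without replicate 3.

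The 8 assembly factors named Ndufaf, which help build complex I without staying in it, had a median of 1.74 ± 0.18 RPKM. Ndufaf4 was the highest of them with 1.56, 1.98 and 3.05 RPKM. Ndufaf8 was the lowest of all members, with 0.611, 0.595 and 0.846 RPKM over 2 windows and 17 reads, a log2 ratio of 0.23 ± 0.37 (SE) and an adjusted p of 0.570. None of its windows was enriched. Ndufaf5 had 1.85, 1.89 and 1.95 RPKM over 17 windows.

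Ndufa4 was first counted with complex I and is now placed with complex IV, and Ndufa4l2 is its paralogue. Ndufa4 had 1.83, 1.49 and 2.20 RPKM and Ndufa4l2 0.543, 1.39 and 0.508 RPKM. Ndufa4 was the higher one in 3 of 3 replicates, by 1.32 ± 1.08 on the log2 scale (SD, n = 3). In replicate 2 the genes nearly met. The exact sign-flip permutation test (two-sided) gave p = 0.25, the smallest that 3 replicates allow, and 1 after adjustment over 10 pairs.

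Complex II is succinate dehydrogenase, shared by the respiratory chain and the tricarboxylic acid cycle, and all of its subunits are encoded in the nucleus. Its 4 genes had the highest median of the complexes, 2.24 ± 0.26 RPKM, and lay within a narrow band. Their median length was also the greatest, 20.7 kb against 8.77 in complex I, 4.91 in complex III and 7.19 in ATP synthase. Members with more windows had higher medians, from 1.15 RPKM with 2 windows to 2.04 with 13 or more. Without the start window complex II had 2.45 and complex III 2.32 RPKM. The part of gene length in this order was not tested. Sdhb, the iron-sulphur subunit, had 1.83, 2.89 and 2.67 RPKM. Sdha, the flavoprotein, had 2.25, 2.14 and 2.32 RPKM. The membrane anchors followed, Sdhc with 2.06, 2.29 and 2.21 RPKM and Sdhd with 1.87, 2.68 and 2.03 RPKM. The ranges of all 4 genes overlapped. The 6 pairwise log2 differences ran from -0.11 ± 0.37 (Sdha over Sdhb) to 0.16 ± 0.22 (Sdhb over Sdhd), each with an adjusted p of 1 in the exact sign-flip permutation test, and these 4 genes could not be put in order.

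Complex III passes electrons from ubiquinol to cytochrome c. Its 8 members had a median of 1.87 ± 0.35 RPKM and included the highest gene of all. Uqcrc1, a large core protein of the complex, had 2.35, 3.40 and 2.61 RPKM, with all 7 windows enriched and an adjusted p of 3.29e-09. Uqcrc2, its partner in the core, had 2.00, 2.56 and 2.99 RPKM. Uqcrh, the hinge protein, had 2.02 ± 0.45 RPKM, Uqcrb 1.89 ± 0.46 and Uqcrq 1.74 ± 0.54. Uqcrfs1, the Rieske iron-sulphur protein, had 0.905, 1.85 and 2.14 RPKM and lay under 1 RPKM in replicate 1 alone. The small subunits Uqcr11 and Uqcr10 were the lowest. Uqcr11 had 1.45, 1.19 and 0.790 RPKM with an adjusted p of 0.0167. Uqcr10 had 1.18, 0.661 and 1.24 RPKM over 42 reads and missed the threshold with an adjusted p of 0.0525.

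ATP synthase has a catalytic head, F1, and a membrane part with stalks that join it to the head. Its 17 gene models had a median of 1.63 ± 0.10 RPKM. The F1 subunits ran from Atp5e (2.26, 2.51 and 1.35 RPKM) through Atp5a1 (2.10, 1.32 and 1.92), Atp5b (2.04, 1.74 and 1.22) and Atp5c1 (1.49, 1.37 and 1.59) to Atp5d (0.985, 1.29 and 1.52). Atp5a1 and Atp5b encode the alpha and the catalytic beta subunit, present in equal numbers in the head, and their ranges overlapped. Among the other subunits, Atp5o, which joins the stator stalk to the head, had 2.27, 3.37 and 2.20 RPKM. In the pair of its 4 windows that overlap no other gene model it was at 1.67 RPKM. Atp5mpl, a small membrane subunit, had 1.83, 2.87 and 2.45 RPKM in windows that overlap no other protein-coding gene.

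The long gene model of Atp5o spans 122 windows, of which 121 are shared with other protein-coding genes, mostly Itsn1. Its level, 1.59, 1.47 and 1.56 RPKM, describes these genes. Without it the members' median was 1.69 ± 0.06 RPKM. Atp5s, a factor linked to ATP synthase that is not a structural subunit, had 1.11, 0.865 and 0.615 RPKM over 11 windows. It was the only member with over 5 windows whose mean lay under 1 RPKM, and its log2 ratio of 0.51 ± 0.20 (SE) passed with an adjusted p of 0.0285. It did not pass without replicate 1 or without replicate 2, nor with the median over windows as the level.

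Atp5g1, Atp5g2 and Atp5g3 encode the same mature c subunit of the membrane ring with different import sequences. Atp5g1 had 1.26, 2.18 and 1.18 RPKM, Atp5g2 had 1.49, 2.05 and 1.97 RPKM, and Atp5g3 had 1.36, 0.396 and 1.69 RPKM over 2 windows and 32 reads. Atp5g2 was above Atp5g3 in 3 of 3 replicates, by 0.91 ± 1.26 on the log2 scale, of which replicate 2 alone gave 2.37. The exact sign-flip permutation test gave p = 0.25 before and 1 after adjustment. Atp5g1 was above Atp5g3 in 1 of 3 replicates and above Atp5g2 in 1 of 3.

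**Figure D3:**
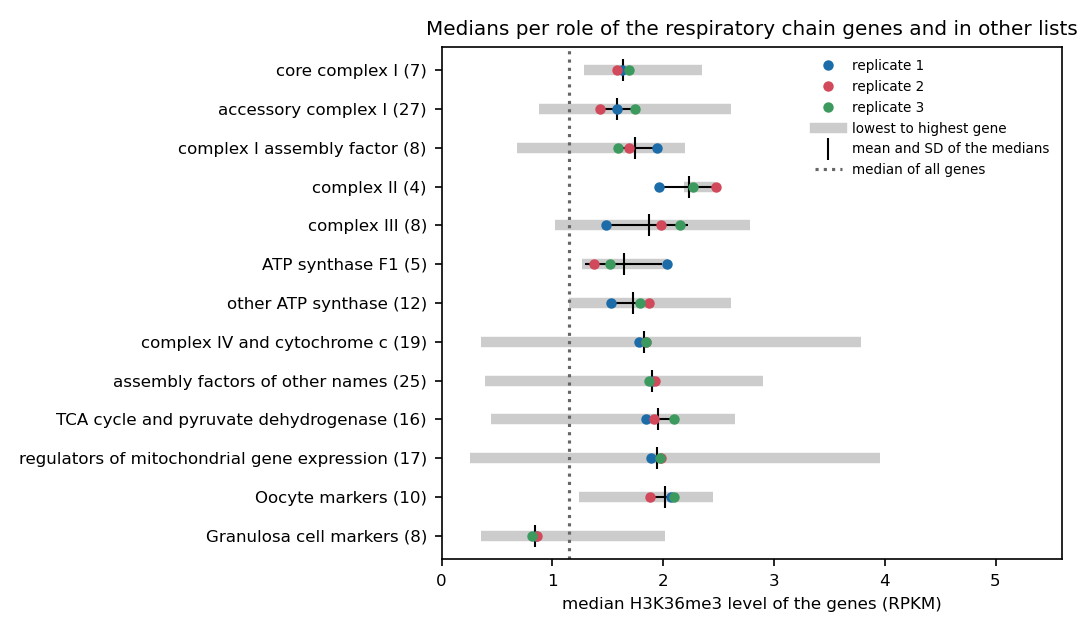
Median H3K36me3 level (RPKM) of the genes of each role and of other gene lists in replicates 1 (blue), 2 (red) and 3 (green), with the mean and SD of the 3 medians; grey bars run from the lowest to the highest gene and the number of genes stands in brackets. The median of complex II is 2.24 RPKM, the medians of the 7 roles drawn lie right of the median of all genes (dotted, 1.15 RPKM), and the granulosa cell markers lie left of it.

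Other genes of mitochondrial respiration stood at like levels. Of 19 genes listed for complex IV and cytochrome c, 16 were above the intergenic level by limma and 0 below, with a median of 1.82 ± 0.04 RPKM. The 16 include Cyc1 (1.39 RPKM), which encodes cytochrome c1 of complex III and has a symbol outside the rule. The genes of this list that did not pass were Cox8c and Cox6b2, forms known from testis, and Cycs, somatic cytochrome c, with 0.356, 0.903 and 0.936 RPKM. Cyct, the testis form of cytochrome c, passed at 2.39 RPKM with all 5 windows enriched. Of 25 assembly factors with other names, 24 passed, with a median of 1.90 ± 0.03, and Sdhaf1 (0.392 RPKM) did not. Of 16 genes of the tricarboxylic acid cycle and pyruvate dehydrogenase, 15 passed, with a median of 1.96 ± 0.13. Idh2, the NADP-dependent isocitrate dehydrogenase of mitochondria, was the one that did not, at 0.448 RPKM. Among 17 regulators of mitochondrial gene expression, 16 were above and 1, Mterf1a (0.258 RPKM), below, with a median of 1.95 ± 0.05. For each of these lists the background was 57.3% above and 18.3% below.

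Along the members the mark was low at the start and high in the body. In the window that holds the gene start, members averaged 0.796 ± 0.073 RPKM (SD, n = 3; 73 genes, without the long Atp5o model), close to the 0.713 ± 0.036 of all genes. Over windows that still overlap the gene, the members' mean was 1.61 ± 0.04 RPKM at 2 kb (73 genes), 1.96 ± 0.10 at 4 kb (66 genes) and 2.18 ± 0.05 at 6 kb (54 genes). The mean over all genes that reach these places was 1.08, 1.19 and 1.24. Outside the members the mark was also higher: windows 10 and 20 kb before the start averaged 1.43 ± 0.04 and 1.41 ± 0.02 RPKM, against 0.934 and 0.993 for all genes. Neighbouring genes in these windows were not set apart. The start window was below the mean of the gene's other windows in 69 of 74 members, against 77.2% of all genes, and in each replicate in 54, against 50.3%. Exceptions were Atp5f1, Ndufaf4, Ndufaf8, Ndufc2 and the long Atp5o model.

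At the gene end the members averaged 2.07 ± 0.21 RPKM against 1.25 ± 0.03 for all genes. Beyond the end their mean dropped to 1.38 ± 0.06 at 2 kb and 1.21 ± 0.07 at 4 kb, where all genes were at 1.06 and 1.01.

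**Figure D4:**
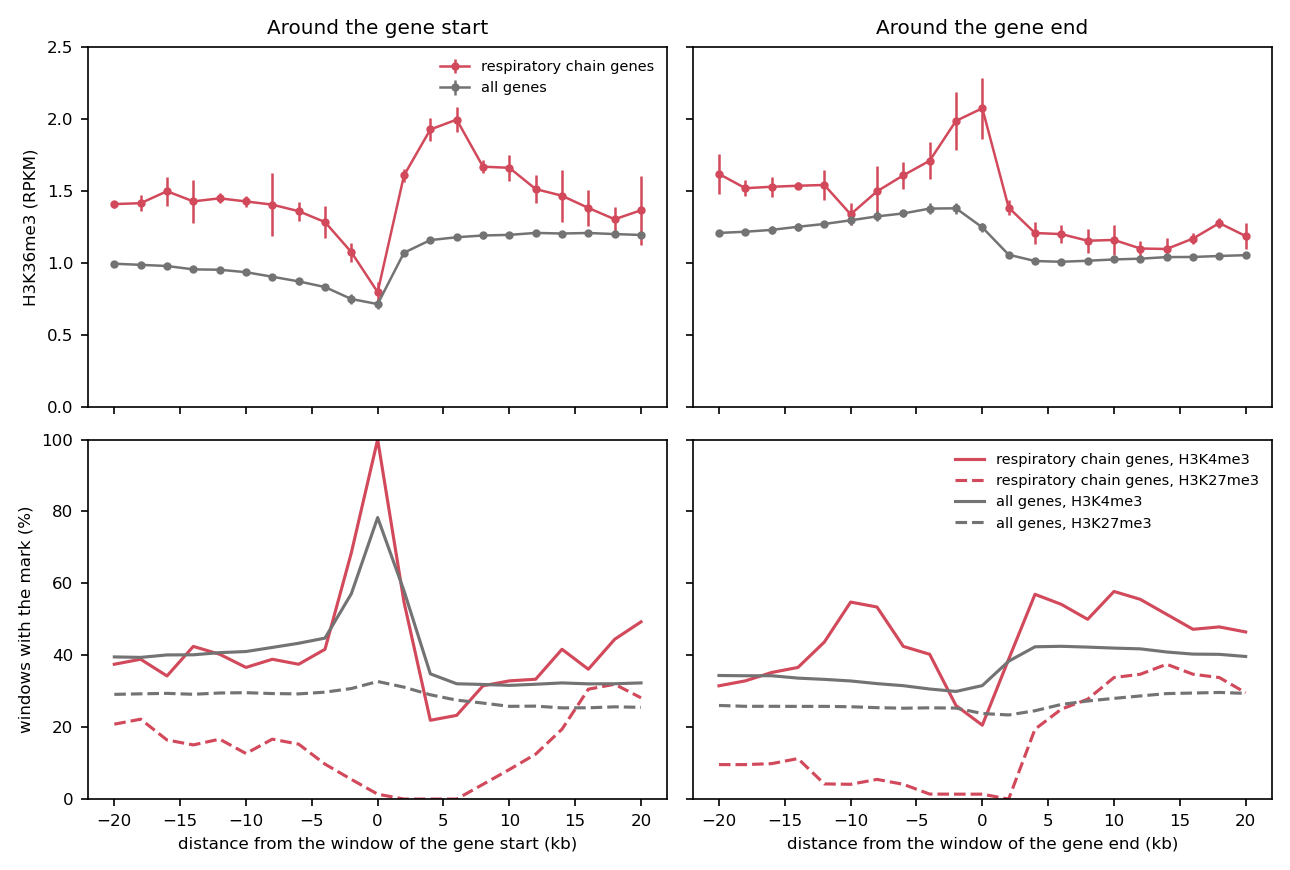
Upper panels, mean H3K36me3 (RPKM) of windows by distance (kb) from the window of the gene start (left) and gene end (right), with the SD over 3 replicates, for 73 respiratory chain genes (red) and all autosomal protein-coding genes (grey), windows past the end of short genes included. Lower panels, share of the same windows called for H3K4me3 (solid) and H3K27me3 (dashed). Members rise from 0.796 RPKM at the start to 2.00 at 6 kb, all their start windows carry H3K4me3, and H3K27me3 is near 0% from the start to 2 kb past the end.

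H3K4me3 is found at promoters and, in oocytes, also over broad stretches away from them, while H3K27me3 goes with repressed genes. Calls for both were taken from the deposited table of marks, which has a single call for each window. The start window was called for H3K4me3 in 73 of 74 members, against 78.3% of all genes, and the long Atp5o model was the one without it. It was called for H3K36me3 in 20 of 74, against 22.9%. It was called for H3K27me3 in 1 member, against 32.7% of all genes. No window at all was called for H3K27me3 in 71 of 74 members, against 55.7%. Of the members' 696 windows, 78.0% were enriched for H3K36me3, against 51.6% of windows over autosomal protein-coding genes, and 50.3% passed 1 RPKM in each replicate, against 34.4%. Above 1.5 RPKM the share was 59.1% (against 39.4%) and above 2 RPKM 40.5% (against 27%). H3K4me3 was called in 30.9% (against 26.4%) and H3K27me3 in 3.30% (against 26.1%). H3K36me3 stood alone in 62.4% (against 41.8%) and with H3K4me3 in 14.9% (against 7.32%), H3K4me3 stood alone in 13.9% (against 10.1%), and 5.46% held no mark (against 15.4%). Without the long Atp5o model H3K27me3 was called in 1.22% of 576 windows.

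The exceptions for H3K27me3 were 3 gene models. In Sdhc it was the start window alone, at 0.539 ± 0.140 RPKM of H3K36me3. In Ndufaf2 it was 6 of the last 8 windows of 79, and 2 of these were also called for H3K36me3. In the long Atp5o model 16 windows carried it, all shared with Itsn1. In the windows past the members' ends H3K27me3 was called in 0% at 2 kb, 19.4% at 4 kb and 33.8% at 10 kb.

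The change along the gene was also tested gene by gene, as the log2 ratio of the second to the first part of its windows. Among 42 members with at least 5 windows, the second part was the higher one in 36 (85.7%), against 70.6% of 14986 genes. The first part includes the start window, which was low in most members. Few single genes passed limma: 3 members were higher in the second part, Atp5g2, Atp5j and Sdhb, against 20.2% of all genes, and Ndufaf2 was lower, against 3.01%. With replicate 1 left out, limma called 0 members in either direction, where 5 were higher and 0 lower at an unadjusted p under 0.05. Leaving out replicate 2 gave 2 and 1, and leaving out replicate 3 gave 1 and 0. With all replicates but without the start window, 32 members still had at least 5 windows. Of these, limma called 2 higher in the second part (Atp5g2 and Sdhb), against 18.9% of 13770 genes. It called 1 lower (Ndufaf2), against 3.66%.

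Atp5j, a subunit of the stator stalk, rose from 0.815, 0 and 0.169 RPKM in the first part to 2.10, 1.19 and 2.71 in the second, by 2.78 ± 0.53 on the log2 scale (SE, adjusted p = 0.00654 by limma). The start window of Atp5j, in the first part, is shared with another protein-coding gene. Atp5g2 rose from 0.770, 1.19 and 0.677 RPKM to 2.22, 2.91 and 3.27, by 1.59 ± 0.35 (adjusted p = 0.0125). Sdhb rose from 1.36, 2.06 and 1.69 RPKM to 2.31, 3.73 and 3.65, by 0.87 ± 0.22 (adjusted p = 0.0203). In each of these genes the low windows lay at the start and carried H3K4me3, which covered the first 3 of 5 windows in Atp5j, the first 4 of 6 in Atp5g2 and the first 5 of 10 in Sdhb. Ndufaf2 went the other way, from 1.82, 1.47 and 2.08 RPKM to 1.41, 1.30 and 1.40 (log2 ratio -0.35 ± 0.10, adjusted p = 0.0378), with its H3K27me3 windows at the far end.

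**Figure D5:**
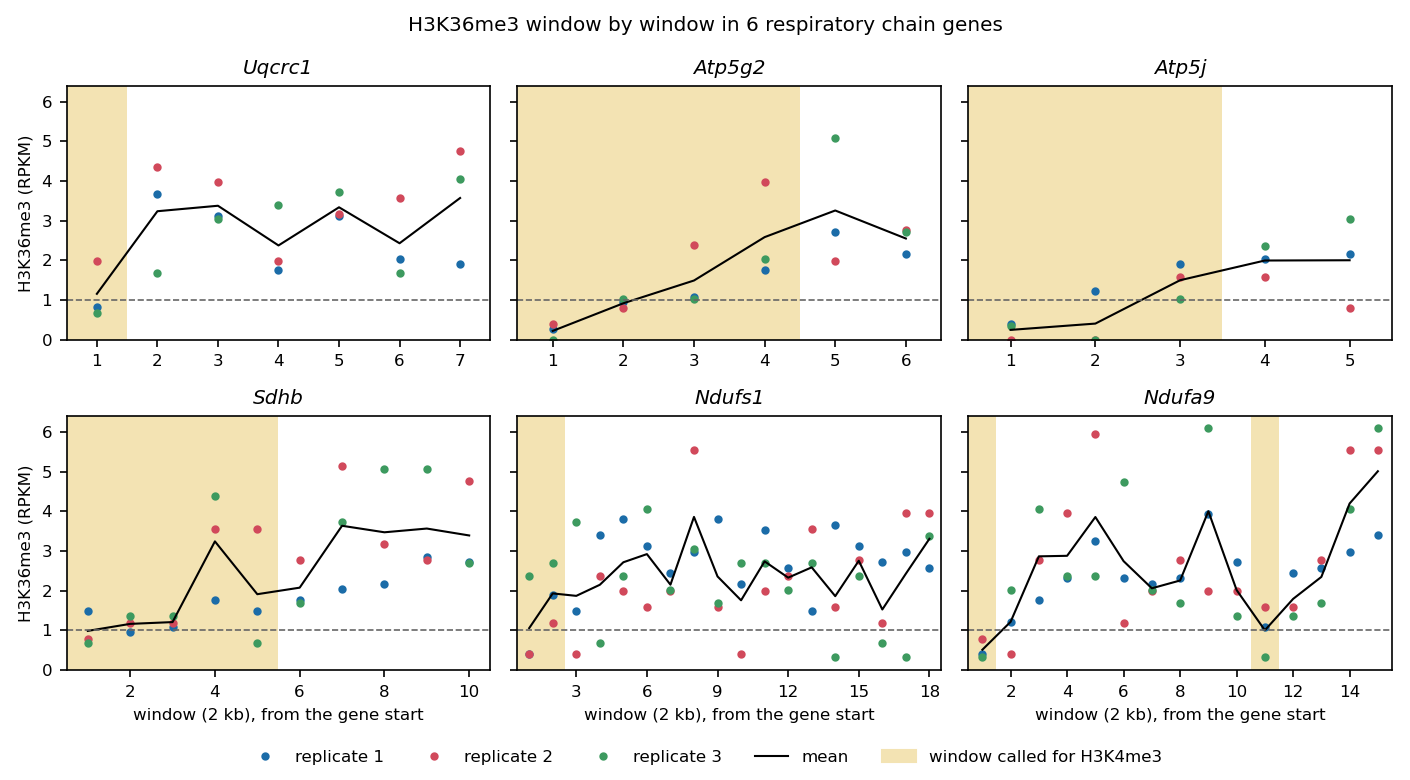
H3K36me3 (RPKM) in each 2 kb window of 6 members, numbered from the gene start in the direction of transcription, in replicates 1 (blue), 2 (red) and 3 (green) with their mean (line); shaded windows were called for H3K4me3. The first window of Uqcrc1 is at 1.16 RPKM and its second at 3.24, while Atp5g2 climbs from 0.223 in the first to 3.26 in the fifth, and window 11 of Ndufa9, called for H3K4me3, lies at 1.00 RPKM between neighbours at 2.02 and 1.79.

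The members' promoters were mostly rich in CpG. RefSeq promoter sequences (GRCm38.p6, 250 bases before to 50 bases after the start) matched 59 of the 73 members other than the long Atp5o model, and 14 were not matched. RefSeq starts can differ from the gene starts used above, and 58 of the 64 promoters had theirs in the member's start window, while Atp5d, Atp5g2, Atp5j2 and Ndufa5 had theirs in another window. The window of the RefSeq start was called for H3K4me3 in all 64. The share over all RefSeq promoters was not taken, and the nearest background is the 78.3% of all genes whose start window was called. Of these promoters, 57 (89.1%) had a ratio of observed to expected CpG above 0.6, against 50.1% of 19174 promoters of autosomal protein-coding genes. A set of 4 short words known from promoters of respiratory genes were searched on both strands, and in the members no match to a word overlapped a match to another word. The NRF1 word GCGCATGC, for nuclear respiratory factor 1, stood in 17.2% of the members' promoters against 3.67% of all. The YY1 word AAGATGGC stood in 15.6% against 3.09%, the ETS word CCGGAAGT in 6.25% against 5.45% and the ESRRA word TCAAGGTCA in 3.13% against 0.339%. In counts, of the 64 promoters of members 11 held the NRF1 word, 10 the YY1 word, 4 the ETS word and only 2 the ESRRA word. A match shows only that these letters are there, and nothing was measured here about binding.

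The YY1 word is shown because most of its matches lay at a like distance from the RefSeq start. All 10 stretches below lie in windows called for H3K4me3, and 9 of them in the member's start window, the exception being Atp5j2 (window at 2.24 RPKM). The windows of all the members' RefSeq starts were called for H3K4me3 too, so this sets the stretches apart from no other member promoter. All 10 matches read on the strand of the gene. In 9 of the 10 genes the word began 10 to 38 bases after the RefSeq start (the start itself counted as 0). In Atp5j it lay before the RefSeq start at chr16:84834976. It was inside that gene, whose start used above, chr16:84835625, is also a RefSeq start. Each stretch has 30 bases, 5′ to 3′ on the strand of the gene, with the word in capitals and with its place in GRCm38.
Atp5j (chr16:84835046-84835075, minus strand): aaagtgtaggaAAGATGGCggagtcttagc
Atp5j2 (chr5:145191500-145191529, minus strand): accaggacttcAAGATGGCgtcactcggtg
Ndufa3 (chr7:3617384-3617413, plus strand): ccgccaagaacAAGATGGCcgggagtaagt
Ndufa9 (chr6:126849097-126849126, minus strand): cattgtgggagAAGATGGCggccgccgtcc
Ndufaf8 (chr11:120098933-120098962, plus strand): aggcagggcccAAGATGGCggcgccctcga
Ndufb8 (chr19:44555393-44555422, minus strand): tgaaccgcggagaaggtgAAGATGGCtgcc
Ndufc1 (chr3:51408915-51408944, minus strand): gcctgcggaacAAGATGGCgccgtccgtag
Ndufs4 (chr13:114388045-114388074, minus strand): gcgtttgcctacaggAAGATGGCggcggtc
Ndufs6 (chr13:73328433-73328462, minus strand): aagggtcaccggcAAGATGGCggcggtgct
Ndufs7 (chr10:80249462-80249491, plus strand): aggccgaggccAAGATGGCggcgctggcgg

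The levels of these genes ran from 0.684 RPKM in Ndufaf8 to 2.59 in Ndufa9, and so the word was found at both ends of the members' range. The NRF1 word was found in 11 genes, and it is shown for Uqcrc1, the highest member, for Sdhb and Atp5k, and for Ndufa6 and Uqcr11, which were among the lowest. Where the word overlaps its own match on the other strand, the capitals mark both.
Uqcrc1 (chr9:108936668-108936697, plus strand): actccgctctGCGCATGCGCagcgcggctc
Sdhb (chr4:140961206-140961235, plus strand): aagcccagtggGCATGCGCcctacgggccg
Atp5k (chr5:108434430-108434459, minus strand): tttcactgcgGCGCATGCGCctttctggct
Uqcr11 (chr10:80406807-80406836, minus strand): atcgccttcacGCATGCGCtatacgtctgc
Ndufa6 (chr15:82354356-82354385, minus strand): tccgcggtagaGCATGCGCattgcagagcc
The 11 genes ran from 1.10 RPKM in Ndufa6 to 2.79 in Uqcrc1.

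The 250 bases before the RefSeq start of Atp5j at chr16:84834976 are shown (chr16:84834977-84835226, minus strand, YY1 word in capitals). They lie inside the gene, downstream of its start at chr16:84835625. They are given as an example of a RefSeq promoter whose window, the start window of the gene, carried H3K4me3 and little H3K36me3, 0.249 ± 0.218 RPKM. This window is shared with another protein-coding gene.
Atp5j promoter: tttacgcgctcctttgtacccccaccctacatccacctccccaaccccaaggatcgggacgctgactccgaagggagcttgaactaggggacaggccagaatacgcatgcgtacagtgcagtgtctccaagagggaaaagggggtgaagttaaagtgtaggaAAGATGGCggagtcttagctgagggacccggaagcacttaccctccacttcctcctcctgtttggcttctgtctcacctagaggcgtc

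Many members share their start region with a neighbour. In 25 of 74 (33.8%) another protein-coding gene started on the opposite strand within 1 kb, against 8.15% of all genes. Of these partners 21 had a mean level above 1 RPKM, against 81% of the partners of all genes and 54.1% of all genes, and their median was 1.83 RPKM beside 1.79 for the members they face. Uqcrq faces Gdf9, an oocyte growth factor, and the genes had 1.74 and 1.84 RPKM. Sdhd faces Timm8b, a chaperone of the intermembrane space (2.19 and 1.59 RPKM), and Ndufs1 faces Eef1b2, a translation elongation factor (2.35 and 2.20). Partners under 1 RPKM included Mrpl36 beside Ndufs6 (0.187 and 1.99), Morn5 beside Ndufa8 (0.420 and 2.00) and Asb15 beside Ndufa5 (0.640 and 2.02).

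The enriched stretches around the members were mostly short. Adjoining windows above 1 RPKM were joined into domains, and of the 73 members without the long Atp5o model 72 had one, against 72.3% of all genes. The domains of these members had a median of 10 kb and ran from 2 to 108 kb, against a median of 20 kb for all genes with an enriched window. The genes differed in length as well, with medians of 7.8 kb for the 73 members and 19.2 kb for all genes with at least 2 windows. For 37 of these 72 members the domain touched no other protein-coding gene. Among all genes this held for 8426 of the 14165 with a domain, a larger share. It was 43% of all 19589 genes, those without a domain included. Examples are the 34 kb around Ndufa10 (chr1) and the 32 kb around Ndufa9 (chr6). Atp5j2 lay in the longest one, 108 kb with 8 genes on chromosome 5, followed by Ndufab1 with 94 kb and 4 genes and Ndufs1 with 78 kb and 3 genes. In 46 members at least 1 window is shared with another protein-coding gene, and the reads of a shared window cannot be divided between them.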

How the data were processed

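Per the study's methods and the labels, reads were trimmed and aligned by the authors (Bowtie2 2.2.9, build GRCm38), who deposited RPKM values per replicate for 2 kb windows quantified in SeqMonk, leaving out windows under 0.04 or over 2 RPKM in input. Removal of duplicate reads was not stated, so counts may include PCR copies, and precision from reads covers counting error only. The authors' second table holds categories of marks, with H3K4me3 and H3K27me3 from earlier libraries of the same laboratory.

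Every value was a whole multiple of 1 read within 0.001 of a read (100% whole). Because the deposited RPKM unit is no count, levels were tested on the log2 scale with limma 3.58.1 in R 4.3.3 (pseudocount 0.1, moderated test of the mean against 0 with a variance trend over reads). A gene took every valid window that overlaps it, with at least 2 windows (5 for the test along the gene). Pairs were tested with exact sign-flip permutation over replicates. The scripts were tested on simulated data. The members and lists were chosen with earlier results of these data known. The text names the 8 highest and 8 lowest members, core complex I, complexes II and III, F1, the fixed pairs, and members with an H3K27me3 window or a call along the gene; others were named after their values were seen. Alternatives were other window assignments, filters, pseudocounts, references and leaving out each replicate. Some members have processed copies elsewhere in the genome, and reads shared with them were not tested. X-linked members (Ndufa1, Ndufb11) lie outside the rule. Values of some genes under these rules are not reported here.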

Additional observations from a re-analysis of the deposited data

How the results depend on the processing

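No paired analysis was possible because all samples belong to a single group. The members above 1 RPKM and those above or below the reference level kept within 1.5 times their count under every alternative. Between 47 (reference 1 RPKM) and 71 (intergenic reference, pseudocount 0.5) were above the reference, with none below. The members tested numbered from 64 to 74 by setting. The members' median moved to 1.76 RPKM with at least 3 windows a gene, 1.86 with windows of no other protein-coding gene, 1.86 with windows by midpoint or with 1 kb in the gene, and 1.97 without the start window. For ATP synthase it moved to 1.78 (own windows) and 1.82 (no start window), for complex I to 1.78, 1.92 and 1.84 (midpoint) and for complex III to 2.32 (no start window). Leaving out the start window removes the window that is low in most members. Members higher in the second part of the gene numbered 6 with a pseudocount of 0.5 and 0 without a variance trend (limma, 14 at an unadjusted p under 0.05), and 0 to 2 with a replicate left out. Members lower there numbered 0 with a pseudocount of 0.01 (1 at an unadjusted p under 0.05) and 0 without a trend (also 0 unadjusted), and 0 to 1 with a replicate left out. The share of enriched windows was 59.1% above 1.5 RPKM, 40.5% above 2 RPKM and 50.3% in each replicate. Log2 differences that turned sign were all small or between short genes: Sdha over Sdhd -0.071 with own windows and -0.071 without the start window, Sdhb over Sdhd -0.034 with own windows, and Sdhc over Sdhd -0.11 with own windows and -0.095 without the start window. With a replicate left out, Atp5g1 over Atp5g3 ran from -0.31 to 1.17, Sdha over Sdhb from -0.32 to 0.045, Sdha over Sdhc from -0.012 to 0.098, Sdha over Sdhd from -0.064 to 0.23 and Sdhc over Sdhd from -0.051 to 0.13. Apart from the start window, the cause of these changes was not tested. Depth limits the 7 members with 2 windows most.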

Other observations

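Among genes outside the rule, those of complex IV with the highest levels were the muscle and heart forms Cox6a2 with 3.78 RPKM, Cox8b with 3.01 and Cox7a1 with 2.58, each over 2 windows of which at least 1 is shared with another protein-coding gene. Polrmt, the mitochondrial RNA polymerase, had 3.96 RPKM, above every respiratory chain gene. On the X chromosome the respiratory chain genes Ndufb11 and Ndufa1 had 2.24 ± 0.54 and 1.58 ± 0.22 RPKM (SD, n = 3). Among processed copies of respiratory chain genes, Ndufab1-ps inside Blm had 2.75 ± 0.80 RPKM and Ndufs6b inside Slc28a1 had 2.45 ± 1.35, while Atp5k-ps2, outside protein-coding genes, and Ndufb4c, inside Mroh5, had no read in any library.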
